A study of Homo sapiens with 9 samples.

Results

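The 10 genes described here are the IL-6 family cytokines IL6, IL11 and LIF, the receptors IL6R, IL6ST, LIFR and OSMR, the transcription factor STAT3 and the suppressors SOCS1 and SOCS3. They were chosen by gene symbol, with earlier results of these data known. They make up 10 of the 16199 genes listed in at least 1 library. RNA was sequenced from HaCaT cells, an immortalized human keratinocyte line labelled as wild type. Of the 9 libraries, 3 came from untreated cells, 3 from cells given 10 nM epidermal growth factor (EGF) and 3 from cells given 1 µM bleogen pB1, a peptide of the cactus Pereskia bleo that acts as an EGF receptor agonist. The cultures were raised in DMEM with fetal bovine serum, all 3 groups were kept in serum-free medium, and treatment of the confluent cells lasted 24 h. The doses of the agents differed, so a difference between them is a difference at these doses. Because HaCaT is 1 line and no source states that the libraries came from separate cultures, p-values measure the spread between these libraries, which may be technical.

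Members of the IL-6 family signal through a shared receptor chain, gp130, which is encoded by IL6ST. IL-6 binds IL6R before it recruits gp130, IL-11 does the same with IL11RA, LIF joins LIFR to gp130, and oncostatin M (OSM) joins gp130 to either LIFR or OSMR. Kinases bound to the receptors then phosphorylate STAT3, which enters the nucleus and switches on target genes, among them SOCS3. SOCS1 and SOCS3 close the loop by binding the kinases or gp130 and damping the signal. In skin, keratinocytes make several of these cytokines and respond to oncostatin M, and the family is known for its part in wound repair and inflammation.

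Library totals lay between 20288417 and 21320994 expected counts, and all 10 genes were listed in every library, the lowest value being 19 counts for IL6 in EGF replicate 2. All 10 passed the filter on low counts. Replicates 1 and 2 differed more than other replicate pairs did within the EGF group and within the bleogen pB1 group, their mean squared count difference over genes being 20.4 and 20.3 times that of counting noise against 3.84 to 7.7 times for the other pairs. The label of the line was checked against its markers, with 10 of 10 keratinocyte markers at an FPKM (a read level scaled to gene length and library size) of at least 1 in every library. Of the 5 leukocyte markers, CD68, which epithelial lines can also express, was the one at an FPKM of at least 1 in every library, with 5.74 to 6.82 outside the EGF group and 10.1 to 11.3 within it, and LYZ reached 1.29 at most. The 6 fibroblast markers summed to an FPKM of 1.14 to 1.83 without EGF and 0.23 to 0.33 with it, endothelial and melanocyte markers summed to at most 0.16 and 0.87, and the part of these shifts in the results below was not tested.

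Read per length, STAT3 was by far the most abundant of the 10 transcripts. Its FPKM in untreated cells was 59.8 ± 0.40 (mean ± SD, n = 3), followed by the receptor chains OSMR at 17.6 ± 0.77 and IL6ST at 14.7 ± 1.0. LIF, at 3.72 ± 0.39, was the most abundant ligand, and SOCS3 stood at 2.40 ± 0.26. LIFR, SOCS1 and IL6 followed at 1.80 ± 0.23, 1.65 ± 0.44 and 1.62 ± 0.42, and the ranges of LIFR and SOCS1, and of SOCS1 and IL6, overlapped between libraries. IL6R at 0.58 ± 0.036 and IL11 at 0.487 ± 0.059 were the lowest. Thus the untreated cells carried transcripts of the shared chain and of OSMR at several times the level of the ligand-specific chains IL6R and LIFR.

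**Figure D1:**
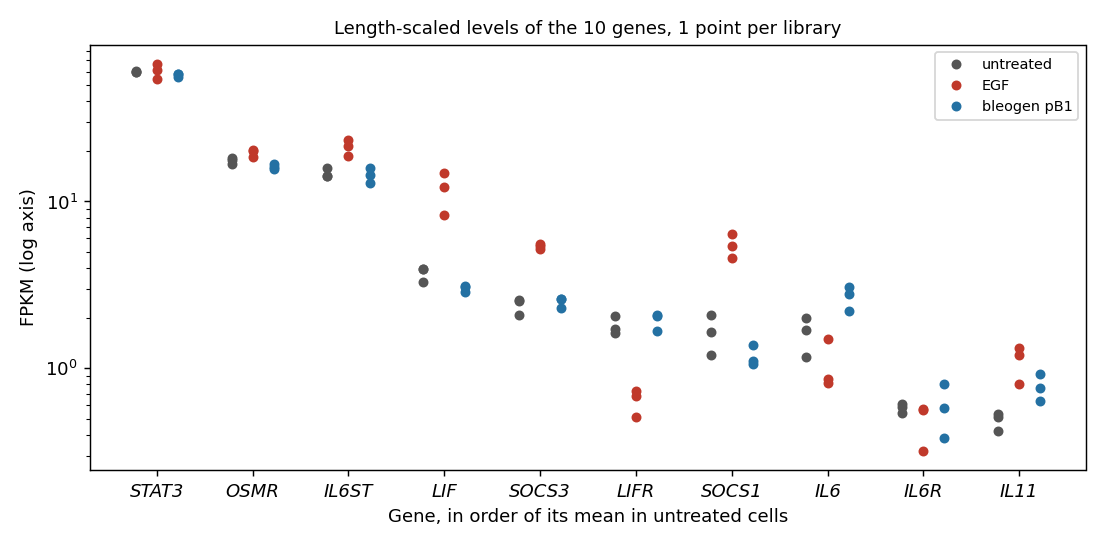
FPKM of the 10 genes on a log axis, with 1 point per library (grey, untreated; red, EGF; blue, bleogen pB1) and the genes in order of their mean in untreated cells. STAT3 lies highest in every library. The EGF points stand apart upward for LIF, SOCS3, SOCS1, IL6ST and, narrowly, OSMR, and downward for LIFR.

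With EGF the order changed. STAT3 stayed first at an FPKM of 60.5 ± 6.4, but IL6ST at 21.3 ± 2.3 and OSMR at 19.6 ± 0.98 now overlapped. LIF reached 11.8 ± 3.3 and lay next, above SOCS1 at 5.46 ± 0.90 and SOCS3 at 5.40 ± 0.20, which overlapped each other. IL11 at 1.11 ± 0.27 overlapped with IL6 at 1.06 ± 0.38, and LIFR, at 0.64 ± 0.12, fell to the range of IL6R at 0.483 ± 0.14. In bleogen pB1-treated cells the top of the order was STAT3, then OSMR and IL6ST with overlapping ranges, and LIF at 3.02 ± 0.14, IL6 at 2.69 ± 0.43 and SOCS3 at 2.51 ± 0.18 formed an overlapping run below them. LIFR at 1.94 ± 0.23 and SOCS1 at 1.18 ± 0.17 came next, and IL11 at 0.773 ± 0.14 and IL6R at 0.59 ± 0.22 overlapped at the bottom.

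To ask how each agonist changed the family, expected counts were compared between groups with edgeR's quasi-likelihood test over all 12394 genes that passed the filter. A gene was called a differentially expressed gene (DEG) at a Benjamini-Hochberg adjusted p of at most 0.05 with an absolute log2 fold change of at least 0.5. EGF changed 6 of the 10 genes, with IL11, LIF, IL6ST, SOCS1 and SOCS3 upregulated and LIFR downregulated. Of all genes tested 36.9% were DEGs in this comparison, 15.1% upregulated and 21.8% downregulated, so EGF moved much of the transcriptome and these counts are to be read against that. The median log2 fold change was 0.41 over the 10 genes and -0.013 over all genes. Bleogen pB1 changed 0 of the 10 by edgeR, against 1.48% of all genes (0.218% upregulated and 1.26% downregulated), with a median of -0.022 over the 10 and -0.001 over all genes. At an unadjusted p under 0.05 there were 3, IL6, IL11 and OSMR. The share of all genes at that cutoff was not computed, so the 3 cannot be read against it. Limma and DESeq2, which gave no adjusted p for IL6 and IL11, also called 0. Set directly against bleogen pB1, EGF gave 5 of the 10 genes at a higher and 2 at a lower level, where 28.8% of all genes were DEGs, 10.8% higher and 18% lower with EGF. Since the untreated and treated groups are each used in more than 1 comparison, the comparisons are not independent of each other. In bulk RNA, fewer expressing cells and less RNA per cell cannot be told apart.

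**Figure D2:**
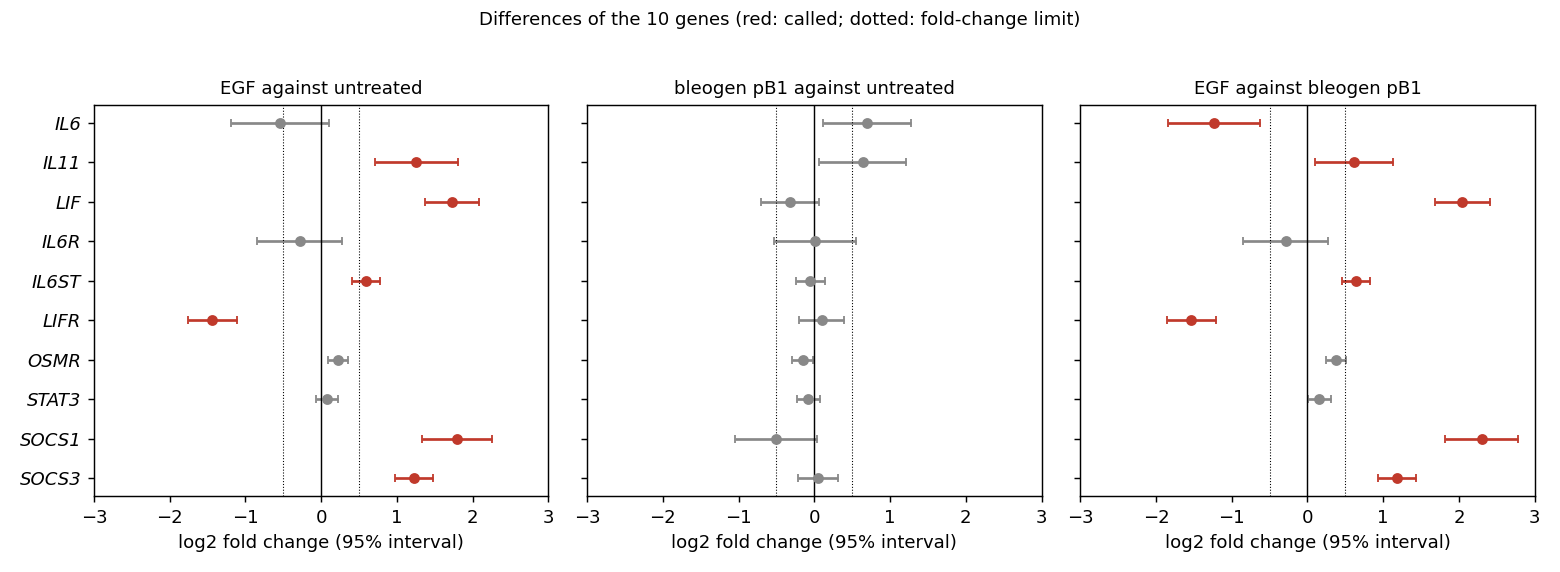
Log2 fold changes (horizontal axis) of the 10 genes with 95% intervals from edgeR in the 3 comparisons, with red for DEGs, grey for the rest and dotted lines at the fold-change limit of 0.5. The EGF panels hold 6 and 7 red points and the bleogen pB1 panel holds 0.

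LIF (NCBI gene 3976, chromosome 22, 30240453 to 30246759, minus strand in GRCh38) encodes leukemia inhibitory factor. In CPM (expected counts scaled to a common library size with TMM factors, without regard to gene length), the untreated libraries gave 15.2, 12.8 and 15.2, the EGF libraries 33.9, 60.2 and 48.9, and the bleogen pB1 libraries 11.04, 11.83 and 11.75. Every EGF library was above all others, and EGF replicate 1 was the lowest of its group. EGF upregulated LIF 3.31-fold, a log2 fold change of 1.72 ± 0.17 (SE; 95% interval 1.36 to 2.08; edgeR adjusted p = 1.9e-06). The bleogen pB1 libraries all lay under the untreated ones, yet the difference of -0.32 (-0.71 to 0.06) did not pass (edgeR adjusted p = 0.31). Between the agonists LIF was 4.13-fold higher with EGF (edgeR adjusted p = 7.5e-07).

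IL11 (NCBI gene 3589, chromosome 19, 55364382 to 55370463, minus strand) encodes interleukin-11, a cytokine of stromal and epithelial cells. Its CPM was 1.17, 1.23 and 0.955 in untreated cells, 1.95, 2.87 and 3.18 with EGF, and 1.72, 1.44 and 2.06 with bleogen pB1. Both treated groups lay above the untreated range, and they overlapped each other. EGF upregulated IL11 2.39-fold (log2 1.26 ± 0.25; interval 0.71 to 1.81; edgeR adjusted p = 0.00075). With bleogen pB1 the log2 difference was 0.64 (0.07 to 1.22), which did not pass (edgeR adjusted p = 0.18). The higher level with EGF than with bleogen pB1, 0.62 on the log2 scale, passed narrowly with edgeR (adjusted p = 0.041). This call was lost with DESeq2 (adjusted p = 0.084), with edgeR on the 6 libraries compared (adjusted p = 0.066) and with a replicate block (edgeR adjusted p = 0.054). It was also lost with upper-quartile factors, no scaling factors, unfiltered limma and a log2 fold-change limit of 1. Leaving out any 1 of EGF replicates 2 and 3 and bleogen pB1 replicates 1 and 2 lost it too, the edgeR adjusted p then being 0.094, 0.17, 0.089 and 0.12.

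IL6 (NCBI gene 3569, chromosome 7, 22725884 to 22732002, plus strand) encodes interleukin-6, the cytokine after which the family is named. Its highest levels were in bleogen pB1-treated cells. Untreated libraries gave a CPM of 1.88, 2.26 and 1.29, EGF libraries 1.75, 0.957 and 1.01, and bleogen pB1 libraries 2.44, 3.29 and 3.04. The bleogen pB1 libraries lay above all others, and EGF replicate 1 alone of its group fell within the untreated range. Against untreated cells neither difference passed, with -0.54 (-1.19 to 0.10; edgeR adjusted p = 0.12) for EGF and 0.69 (0.12 to 1.27; edgeR adjusted p = 0.15) for bleogen pB1. Without EGF replicate 1 the EGF difference became -0.87 and passed (edgeR adjusted p = 0.024). Without any other single untreated or EGF library it did not pass, lying between -0.355 and -0.739 (edgeR adjusted p = 0.053 to 0.37). Between the agonists IL6 was 2.36-fold higher with bleogen pB1 than with EGF (EGF minus bleogen pB1 -1.24 ± 0.28 on the log2 scale; interval -1.85 to -0.63; edgeR adjusted p = 0.0023). These values rest on 19 to 71 counts per library.

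Promoters of the genes were read from RefSeq (GRCh38.p14; 250 bases before and 50 from the start site), where 9 of the 10 genes were matched, with 12 windows between them; LIF is the gene that was not matched. Each was searched on both strands for a STAT motif, TTCNNNGAA, its stricter form TTCCNGGAA, which is contained in it, and an AP-1 motif, TGANTCA. Of 35116 promoters in the same table, 7.66% hold the STAT motif, 1.15% the strict form and 7.71% the AP-1 motif. Among the 6 genes that EGF changed, the IL11 window (chr19:55370414-55370713, minus strand) held TGAGTCA 96 bases before the start site. The OSMR and IL6R windows also held the AP-1 motif, as TGATTCA and TGAGTCA. The IL11 window is shown because it is the only one of an upregulated gene with a match among those searched, printed 5′ to 3′ with the match in capitals.
IL11: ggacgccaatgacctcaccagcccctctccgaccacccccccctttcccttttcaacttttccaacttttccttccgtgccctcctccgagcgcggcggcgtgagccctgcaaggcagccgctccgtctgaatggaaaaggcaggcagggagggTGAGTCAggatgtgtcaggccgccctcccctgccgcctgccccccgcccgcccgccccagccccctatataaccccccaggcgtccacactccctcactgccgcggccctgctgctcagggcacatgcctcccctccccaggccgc

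Among the receptors, EGF raised the shared chain and lowered one of its partners. IL6ST (NCBI gene 3572, chromosome 5, 55935095 to 55995022, minus strand) gave a CPM of 126, 128 and 141 in untreated cells, 176, 217 and 200 with EGF, and 115, 139 and 126 with bleogen pB1. The EGF libraries were all above the rest, and bleogen pB1 overlapped with untreated. EGF upregulated IL6ST 1.505-fold (log2 0.59 ± 0.09; interval 0.40 to 0.78; edgeR adjusted p = 5.9e-05), close to the fold-change limit, and with upper-quartile scaling the value was 0.49, under the limit, where the median of all genes was itself shifted to -0.12. The bleogen pB1 difference was -0.05 (-0.24 to 0.14; edgeR adjusted p = 0.77), and IL6ST was 1.56-fold higher with EGF than with bleogen pB1 (edgeR adjusted p = 4.6e-05).

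LIFR (NCBI gene 3977, chromosome 5, 38474668 to 38608354, minus strand), the chain that binds LIF, was the one downregulated member. Its CPM was 17.1, 16.3 and 20.5 in untreated cells, 7.10, 5.24 and 7.56 with EGF, and 20.8, 16.6 and 20.4 with bleogen pB1. No EGF library came near the other groups, which overlapped each other. LIFR was 2.70-fold lower with EGF than in untreated cells (log2 -1.44 ± 0.15; interval -1.76 to -1.11; edgeR adjusted p = 3.6e-06) and 2.90-fold lower than with bleogen pB1 (edgeR adjusted p = 3e-06). Bleogen pB1 differed from untreated by 0.10 (-0.20 to 0.39; edgeR adjusted p = 0.71). So the ligand LIF and its receptor chain moved in opposite directions under EGF.

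Of the LIFR promoter windows, 2 of 3 held the STAT motif, TTCCTTGAA at 165 and TTCATCGAA at 182 bases before their start sites, and no window of any other member did. The strict form was in none of the 12. The window with the former match (chr5:38595356-38595655, minus strand) is shown as 1 of 3 promoter windows of the downregulated gene, with the match in capitals, to be compared with the suppressor windows further on. None of the 3 covers the LIFR gene start at 38608354, so the bases around that start were not searched.
LIFR: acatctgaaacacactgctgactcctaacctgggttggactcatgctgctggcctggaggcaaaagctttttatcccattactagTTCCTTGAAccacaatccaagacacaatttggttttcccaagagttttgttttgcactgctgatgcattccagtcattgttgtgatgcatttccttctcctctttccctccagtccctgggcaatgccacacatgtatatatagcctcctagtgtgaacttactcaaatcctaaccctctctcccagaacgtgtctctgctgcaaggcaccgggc

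OSMR (NCBI gene 9180, chromosome 5, 38845858 to 38945596, plus strand), the oncostatin M chain that keratinocytes use, changed little. Its CPM was 91.2, 81.8 and 86.5 in untreated cells, 105, 95.6 and 102 with EGF, and 75.9, 80.0 and 77.4 with bleogen pB1, with no overlap between any groups. The EGF difference of 0.22 ± 0.06 (0.09 to 0.36) had an edgeR adjusted p of 0.0062 but was under the fold-change limit, as was the difference of 0.38 between EGF and bleogen pB1 (edgeR adjusted p = 0.00021). For bleogen pB1 against untreated it was -0.15 (-0.29 to -0.02; edgeR adjusted p = 0.17). OSMR shares 229 exonic bases with RICTOR on the opposite strand, and whether counting used strand is not given in the sources used here. Opposite-strand lncRNA genes that share exonic bases with IL6 (428), IL6ST (797), LIFR (629) and LIF (86 and 83) were listed in no library, so reads from them, if any, cannot be told apart from those of the 4 genes. RICTOR was at an FPKM of 5.77 to 7.44 in untreated cells and 6.52 to 6.81 with EGF.

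The relative level of the oncostatin M receptor chains therefore shifted with EGF. The ratio of OSMR to LIFR, taken per length within each library, was 10.7, 10.3 and 8.64 in untreated cells, 29.7, 36.2 and 27.6 with EGF, and 7.52, 10.1 and 7.80 with bleogen pB1. The EGF mean of 31.2 ± 4.5 was 3.16 times the untreated mean of 9.88 ± 1.1, without overlap, and the exact two-sided permutation test gave p = 0.1, the smallest that 3 against 3 allows. The bleogen pB1 mean of 8.46 ± 1.4 overlapped with untreated (exact permutation p = 0.2).

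**Figure D3:**
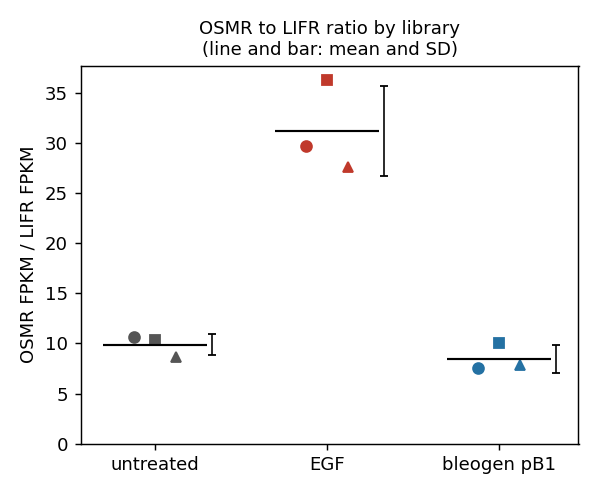
Ratio of OSMR FPKM to LIFR FPKM in each library (circle, square and triangle for replicates 1, 2 and 3), with the group mean as a line and the SD as a bar. The 3 EGF libraries lie between 27.6 and 36.2 and the other 6 between 7.52 and 10.7.

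IL6R (NCBI gene 3570, chromosome 1, 154405193 to 154469450, plus strand), the IL-6 binding chain, was not called in any comparison. It gave a CPM of 2.99, 3.19 and 3.22 in untreated cells, 3.25, 1.71 and 2.74 with EGF, and 2.20, 4.05 and 3.18 with bleogen pB1. All 3 groups overlapped, and the treated libraries spread more widely than the untreated ones. The differences from untreated were -0.28 (-0.84 to 0.28; edgeR adjusted p = 0.35) with EGF and 0.01 (-0.54 to 0.55; edgeR adjusted p = 0.99) with bleogen pB1, intervals that do not exclude a change past the fold-change limit. The authors' length for IL6R ranged from 4757 to 5924 bases between libraries, so its FPKM also moves with the assigned transcripts.

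STAT3 (NCBI gene 6774, chromosome 17, 42313324 to 42388540, minus strand), the main transcription factor of the pathway, was not changed past the limits in transcript level. Its CPM was 288, 292 and 291 in untreated cells, 274, 337 and 308 with EGF, and 268, 280 and 276 with bleogen pB1. The EGF libraries lay on both sides of the narrow untreated range. The differences were 0.08 (-0.07 to 0.23; edgeR adjusted p = 0.33) with EGF and -0.08 (-0.23 to 0.07; edgeR adjusted p = 0.53) with bleogen pB1, and both intervals lie within the fold-change limit. With upper-quartile scaling the EGF value turned to -0.03. The phosphorylated form, which carries the signal, is not measured by RNA.

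**Figure D4:**
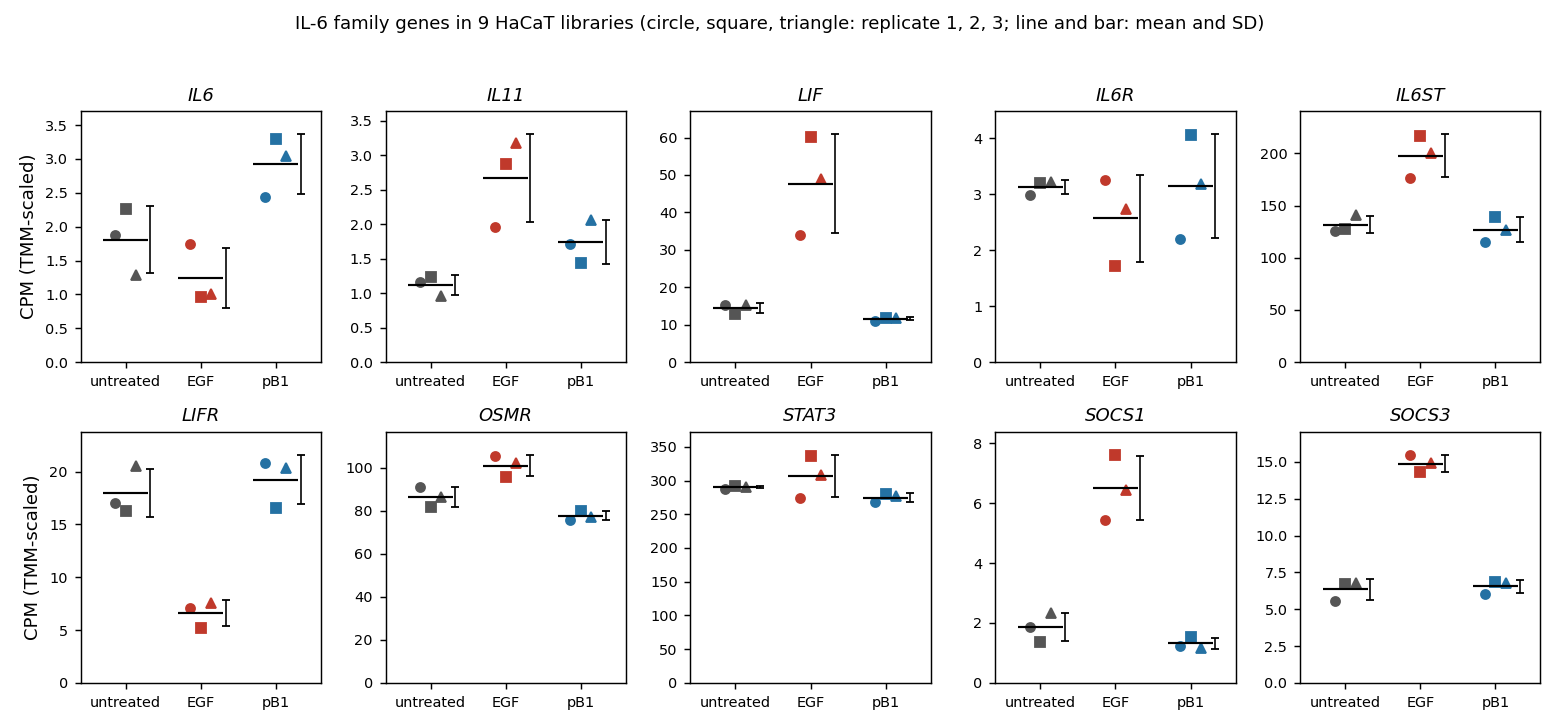
CPM of each gene in the 9 libraries on axes that start at 0, with circles, squares and triangles for replicates 1, 2 and 3, lines for group means and bars for the SD. EGF libraries lie apart from both other groups for LIF, IL6ST, LIFR, OSMR, SOCS1 and SOCS3, and the bleogen pB1 libraries lie highest for IL6.

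Both suppressors rose with EGF. SOCS1 (NCBI gene 8651, chromosome 16, 11254417 to 11256204, minus strand), an inhibitor of the JAK kinases, had a CPM of 1.88, 1.38 and 2.34 in untreated cells, 5.45, 7.60 and 6.45 with EGF, and 1.24, 1.53 and 1.17 with bleogen pB1. The lowest EGF library stood above the highest of the others, and bleogen pB1 overlapped with untreated. EGF upregulated SOCS1 3.47-fold (log2 1.80 ± 0.21; interval 1.33 to 2.26; edgeR adjusted p = 1e-05), the largest upward estimate among the 10 genes, with an interval that overlaps that of LIF. The bleogen pB1 difference was -0.50 (-1.05 to 0.04; edgeR adjusted p = 0.26). Between the agonists SOCS1 was 4.92-fold higher with EGF (log2 2.30; interval 1.82 to 2.78; edgeR adjusted p = 2.9e-06).

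SOCS3 (NCBI gene 9021, chromosome 17, 78356778 to 78360077, minus strand), which binds gp130 itself, was tight within groups. Its CPM was 5.54, 6.73 and 6.78 in untreated cells, 15.4, 14.3 and 14.9 with EGF, and 6.02, 6.82 and 6.79 with bleogen pB1. EGF upregulated it 2.34-fold (log2 1.23 ± 0.12; interval 0.98 to 1.48; edgeR adjusted p = 1.6e-06), and it was 2.27-fold higher with EGF than with bleogen pB1 (edgeR adjusted p = 3e-06). The bleogen pB1 and untreated libraries overlapped, with a difference of 0.04 (-0.22 to 0.31; edgeR adjusted p = 0.87).

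The SOCS1 window (chr16:11256155-11256454, minus strand) and 1 of the SOCS3 windows (chr17:78359618-78359917, minus strand) are shown because both genes rose and neither window held any of the 3 motifs in these letters, so no capitals appear. The SOCS3 window shown lies inside the gene as positioned above, and the other (chr17:78360876-78361175) lies upstream of it. Neither covers the gene start at 78360077, so the bases around that start were not searched and the lack of a match does not describe them. The GC content of the SOCS1 and SOCS3 windows shown was 74.0% and 70.7%, against a median of 58.7% over all promoters in the table, 68.7% for the IL11 window and 47.3% for the LIFR window shown above. The other SOCS3 window was at 64.0% and the other LIFR windows were at 42.3% and 81.7%, so GC content did not separate the upregulated genes from LIFR.
SOCS1: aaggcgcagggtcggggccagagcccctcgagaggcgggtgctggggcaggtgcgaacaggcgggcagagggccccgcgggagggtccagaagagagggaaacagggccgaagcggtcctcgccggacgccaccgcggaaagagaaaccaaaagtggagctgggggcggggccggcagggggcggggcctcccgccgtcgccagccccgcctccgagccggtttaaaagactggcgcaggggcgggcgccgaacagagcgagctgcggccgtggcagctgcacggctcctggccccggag
SOCS3: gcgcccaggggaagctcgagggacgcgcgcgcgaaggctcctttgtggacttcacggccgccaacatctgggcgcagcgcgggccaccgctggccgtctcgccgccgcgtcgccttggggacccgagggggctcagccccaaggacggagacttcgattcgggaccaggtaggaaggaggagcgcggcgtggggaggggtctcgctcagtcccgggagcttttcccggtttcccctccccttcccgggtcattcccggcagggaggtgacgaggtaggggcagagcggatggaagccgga

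The other genes of the pathway were taken from 7 lists of 63 genes, of which 50 were tested. EGF called 26 of the 50, 12 upregulated and 14 downregulated, where 36.9% of all genes were called (15.1% and 21.8% by direction), with a median log2 fold change of 0.05. Bleogen pB1 called 2, both downregulated, where 1.48% of all genes were called, with a median of -0.02, and EGF against bleogen pB1 called 18, 12 higher and 6 lower, where 28.8% of all genes were called.

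Of 8 other ligands of the family, 3 were tested and all were changed by EGF, in different directions, where 36.9% of all genes were called. CLCF1, cardiotrophin-like cytokine factor 1, gave 87, 76 and 82 counts in the untreated libraries and 167, 214 and 180 in the EGF libraries, and rose 2.34-fold (log2 1.23 ± 0.15; edgeR adjusted p = 1.7e-05). CNTF, ciliary neurotrophic factor, rose from 15 to 21 counts to 41 to 67 (log2 1.74; edgeR adjusted p = 0.00018), although its reads may be shared with the ZFP91-CNTF readthrough transcript, so its level is uncertain. CTF1, cardiotrophin-1, gave 41 to 64 counts in untreated cells, 4 to 6 with EGF and 19 to 35 with bleogen pB1. The EGF difference for CTF1 was -3.23 ± 0.37 (edgeR adjusted p = 7.3e-06), further from 0 than that of any of the 10 genes, and the bleogen pB1 difference was -0.90 (-1.50 to -0.29; edgeR adjusted p = 0.086). OSM itself was listed in 1 untreated library, with 1 count, and IL27 and IL31 were listed in none.

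Among 4 other receptors, IL11RA, the IL-11 binding chain, fell with EGF by 0.97 on the log2 scale (edgeR adjusted p = 0.0032), from a CPM of 3.60 ± 0.45 to 1.83 ± 0.52, while its ligand IL11 rose. IL27RA differed by 0.03 (edgeR adjusted p = 0.77), and CNTFR and IL31RA were at 0 in most libraries. Of the 3 tested JAK-family kinases none passed the fold-change limit with EGF, but JAK1 at -0.48 (edgeR adjusted p = 1.1e-05) and TYK2 at -0.29 (edgeR adjusted p = 0.00066) had low p-values, and JAK2 was at -0.06.

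Among the STAT factors other than STAT3, EGF downregulated STAT2 and STAT4 (log2 -2.10 and -1.40; edgeR adjusted p = 2.2e-08 and 0.014). The STAT4 value rests on few reads, with 12 to 17 counts per untreated library and 3 to 9 per EGF library. STAT2, which carries interferon signals, gave a CPM of 264, 240 and 228 in untreated cells, 47.0, 65.9 and 57.7 with EGF, and 178, 134 and 153 with bleogen pB1. The 3 groups did not overlap, with bleogen pB1 between the others, and bleogen pB1 downregulated STAT2 by -0.65 ± 0.12 on the log2 scale (interval -0.90 to -0.40; edgeR adjusted p = 0.0073). The differences of STAT3 itself stayed within 0.1 of 0 on the log2 scale in both comparisons with untreated cells.

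Beyond SOCS1 and SOCS3, 5 of 14 negative regulators were called with EGF, a share near the 36.9% of all genes called and so no result about the list. PTPN11, the phosphatase SHP2 that binds gp130 at the site SOCS3 uses, rose 1.76-fold (log2 0.81; edgeR adjusted p = 6.2e-07), SOCS7 rose by 0.70 (edgeR adjusted p = 1.1e-05), SOCS2 rose by 0.64, and PTPN6, the phosphatase SHP1, and PIAS3, an inhibitor of STAT3, fell by 0.77 and 0.51. Bleogen pB1 called none of the 14, where 1.48% of all genes were called, so this too is no result about the list. PTPN11 was nearest at 0.23 (edgeR adjusted p = 0.073). Of 7 sheddases and adaptors 3 were called with EGF, again near the 36.9% of all genes called and so no result about the list. GRB2 rose by 0.52, and GAB1 and the protease ADAM10, which sheds receptor ectodomains, fell by 0.76 and 0.52 with EGF. The GRB2 and ADAM10 values lie just past the fold-change limit of 0.5.

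Of 20 STAT3 target genes 16 were tested, and EGF upregulated 6 and downregulated 5 of them, where 15.1% of all genes were upregulated and 21.8% downregulated. Those that rose were VEGFA, the vascular growth factor, with a CPM of 72.8 in untreated cells and 319 with EGF (log2 2.13 ± 0.09; edgeR adjusted p = 2.2e-09), BCL3, the survival gene BCL2L1 (0.74; edgeR adjusted p = 1.1e-06), PIM1, CEBPB and TIMP1. Those that fell were the mucin MUC1 (-1.67; edgeR adjusted p = 8.8e-07), CEBPD, IRF1, LCN2 and ICAM1. The median over the 16 was 0.31. Bleogen pB1 called 0 of the 16 with edgeR, where 1.48% of all genes were called, so the 0 is no result about the list. An unadjusted edgeR p under 0.05 was found for 3 of them, a cutoff at which the share of all genes was not computed. Many of these genes have other regulators, and the list does not measure STAT3 activity.

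**Figure D5:**
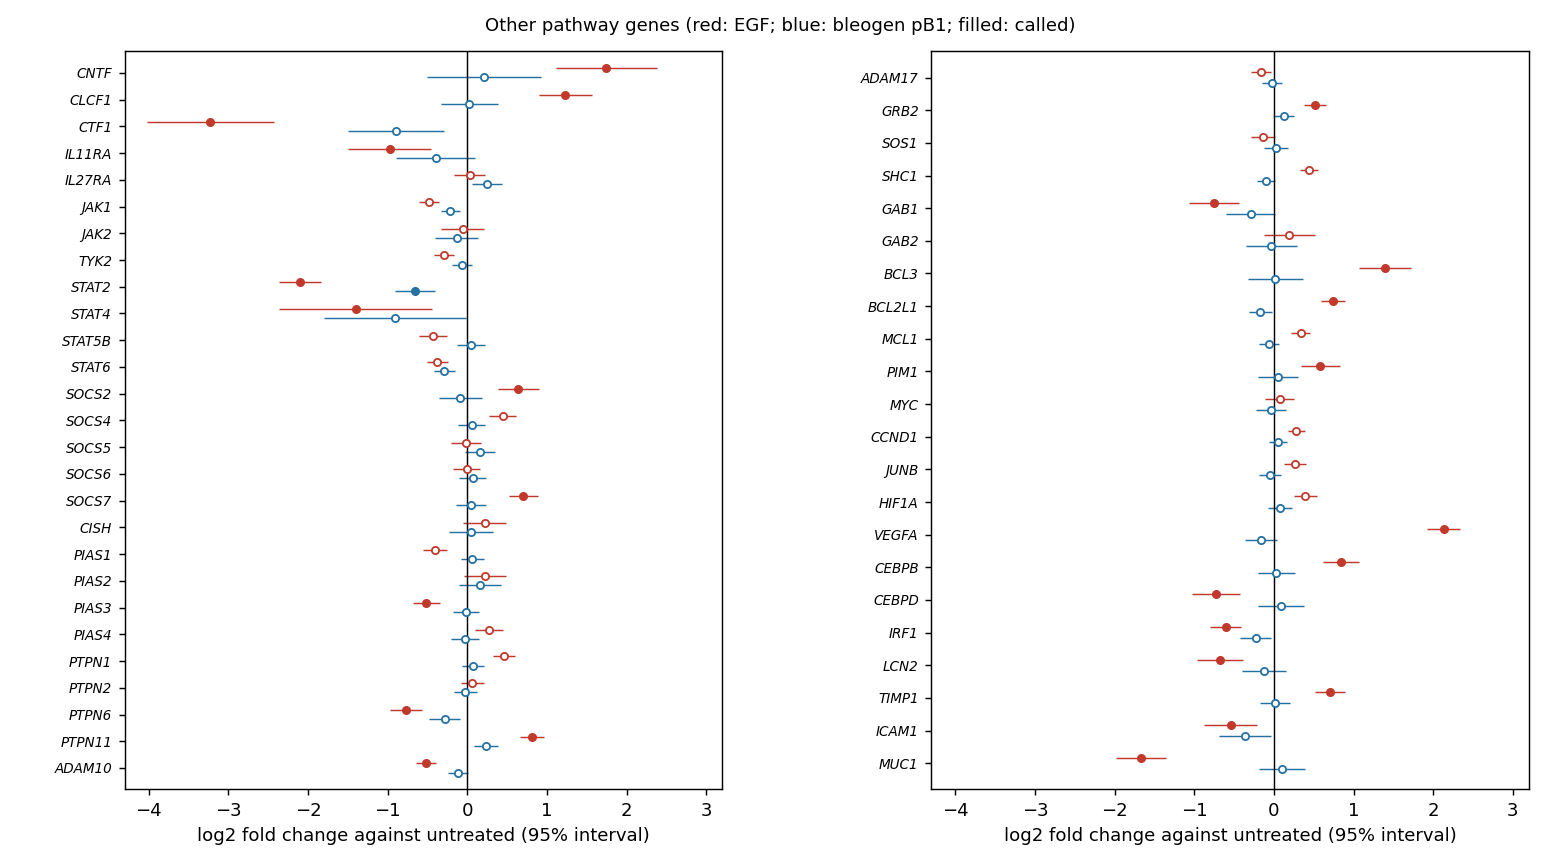
Log2 fold changes against untreated of 49 tested pathway genes other than the 10, with 95% intervals, in red for EGF and blue for bleogen pB1, with filled points for DEGs. EGF has 25 filled points on both sides of 0 and bleogen pB1 has 1, STAT2.

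Genes whose log2 CPM followed a changed member most closely across the 9 libraries were found by Pearson's r among genes with a mean of at least 50 counts. For LIF SARS was among these (r = 0.996), and they were for IL6ST FAM107B and SLC1A5 (0.996 and 0.995), and for LIFR TP53BP1 and SEPT8 (0.997 and 0.992). SOCS1 was most like MACF1 and DYNLT3 (0.995 and 0.994), SOCS3 was most like SNX9 and ITGB1 (0.996 and 0.992), and IL11 was most like PLCB3 and ESS2 (0.962 and 0.959). The EGF libraries stand apart for so many genes that 412 genes had an r over 0.95 with LIF, 503 with IL6ST, 565 with LIFR, 284 with SOCS1 and 807 with SOCS3. For IL11, whose level under bleogen pB1 was intermediate, the number was 5, and the reason was not tested. The 9 libraries share group and depth, so the coefficients describe a pattern over groups.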

How the data were processed

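RNA was sequenced from 9 HaCaT samples, 3 per group. The authors mapped reads to GRCh38.p12 in a commercial online system; per the labels the libraries were oligo-dT primed and stranded, and the quantifier and any use of strand in counting are not given in the sources used here. The deposited tables hold expected counts (estimated counts that need not be whole), FPKM scaled by the authors to length and depth, and a gene length per library. A gene that a table does not list was taken as 0.

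Expected counts were rounded, filtered with filterByExpr, scaled by TMM factors and fitted with edgeR 4.0.16 (quasi-likelihood, all 9 libraries, no covariate, R 4.3.3), with Benjamini-Hochberg adjustment over 12394 genes. The thresholds were the study's, an adjusted p of at most 0.05 and an absolute log2 fold change of at least 0.5. Intervals are 95% intervals of the log2 fold change and reflect the spread between these libraries. Each SE was derived from the log2 fold change and the F statistic of the quasi-likelihood test. FPKM was used for levels between genes. The script was tested on simulated data in which far fewer genes changed than with EGF here. That test therefore does not cover so wide a shift. Alternatives were DESeq2 1.42.0, limma 3.58.1 on log2(FPKM + 1) and log2(FPKM + 0.1), other scalings, filters and thresholds, a replicate block and leaving out each library. Every replicate pair differed by more than counting noise, so no library was counted as a duplicate. The 10 genes and the lists were chosen with earlier results of these data known. Pathway genes were named with values by a fixed rule: from each list, up to 3 DEGs with the smallest adjusted p per comparison with untreated, and any ligand, receptor or kinase. Like genes were the 2 with the highest r. Some genes that meet these rules are not reported here. Others named were chosen after their values were seen. Positions and exon overlaps came from GENCODE for GRCh38, and promoter sequences from RefSeq on GRCh38.p14.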

Additional observations from a re-analysis of the deposited data

How the results depend on the processing

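IL11 and IL6R did not pass the FPKM filter and have no value from filtered limma. Of the other recomputed fold changes of the 10 genes, 474 kept their direction and side of the threshold, 14 lost the call, 2 gained it and 8 turned sign. The 6 EGF calls all held with DESeq2 and without each library. Upper-quartile scaling took IL6ST under the fold-change limit in EGF against untreated, and limma on log2(FPKM + 1) left 3 upregulated genes, filtered or not: IL6ST was at 0.499, and IL11 was not tested with the filter and was not called without it. Limma on log2(FPKM + 0.1) gave 2 downregulated genes, adding IL6, and leaving out 1 library gave 1 to 2. A log2 fold-change limit of 1 left 3 genes higher with EGF than with bleogen pB1. Of the 50 other pathway genes tested, EGF called 40 by adjusted p alone and 9 at a limit of 1. Of all 12394 genes, 8187 and 1892 were called in these settings. EGF against bleogen pB1 called 36 and 8 of the 50, where 7214 and 1458 of all genes were called. With bleogen pB1, 1 pathway gene was called by limma without a filter, 0 at a limit of 1, and 1 to 3 without 1 library. Of all genes, 99, 31 and 102 to 436 were called in these settings. Small differences turned sign. STAT3 with EGF was -0.0263 under upper-quartile scaling, and with bleogen pB1 IL6R was -0.0108 under that scaling and -0.218 to 0.208 without 1 library, IL6ST was -0.127 to 0.0142 and SOCS3 -0.0456 to 0.0998; the cause was not tested. Without bleogen pB1 replicate 1, 436 genes were called against untreated in place of 183, with the 10 genes still at 0. Same-numbered libraries were not paired in the labels, so the numbers were not taken as pairs. Their deviations correlated at -0.0304 to 0.207, and those of differently numbered libraries at -0.253 to 0.163. These ranges overlap and do not settle whether the libraries were paired. With the replicate block 6, 0 and 6 of the 10 genes were called, IL11 being lost between the agonists. The low counts of IL6, IL6R and IL11 limit what could be detected for them.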
